A study of Mus musculus with 6 samples.

Results

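Long intergenic noncoding RNA genes (lincRNA genes) that cultured neonatal rat heart cells expressed were described gene by gene. They are the rows of the deposited gene table that carry the biotype lincRNA and whose mean over all 6 samples was at least 1 FPKM, fragments counted per kilobase of gene and scaled to library size. This rule kept 98 of the 3090 lincRNA rows, in a table of 33682 rows. The genes were selected on their mean level, so the levels are given as a description, without a test. The comparison of the groups was not used to choose them. Even so, 12 of the 98 had a mean of at least 1 FPKM in WT medium only and 8 in Alox5KO medium only, and these rows reached the mean through the group in which they were high.

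RNA was sequenced from cultures of these cells that had received medium conditioned by bone marrow-derived mast cells treated with TNF-a. In the WT-medium group (3 samples) the mast cells were wild type, and in the Alox5KO-medium group (3 samples) they were ALOX5-/-, lacking the enzyme that begins leukotriene synthesis. The sequenced cells themselves carry the genotype WT in every sample. The contrast therefore asks what changes in these cells when the mast cells that conditioned the medium cannot make leukotrienes, and it holds no cells in plain medium and none with medium of resting mast cells. The labels give no age, and they do not say whether samples of a group came from separate cultures, so p-values measure no more than sample-to-sample spread, part of which may be technical.

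A lincRNA is a long transcript, usually spliced and polyadenylated, whose gene lies between protein-coding genes and which holds no long open reading frame. Some act in the nucleus on chromatin, on splicing bodies or on the transcription of a nearby gene, others bind proteins or microRNAs in the cytoplasm, and for most no role is known. Many start close to the promoter of a coding gene and are read in the opposite direction from it, so the gene next door is part of the description of a lincRNA.

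The libraries held between 13284088 and 15766187 reads, recovered from the FPKM values. On 1 kb of exon, 3 reads correspond to 0.185 to 0.228 FPKM, and this limit reflects counting error alone. The sample labels call the cells cardiomyocytes and the design text names a fibroblast culture. All 12 fibroblast markers were present, with a median of 358 to 954 FPKM across libraries, whereas the 11 cardiomyocyte markers in the table had a median of 0.562 to 2.06 FPKM and Myl2, the ventricular myosin light chain, was at 0. The fibroblast markers summed to 12040 to 12990 FPKM in WT medium and 11600 to 13420 FPKM in Alox5KO medium, with 3 called higher and 4 lower. The summed level of 8 smooth muscle and pericyte markers was 1026 to 1113 FPKM in WT medium and 4877 to 6692 FPKM in Alox5KO medium, with 5 called higher and 2 lower. Their median was only 5.83 to 8.08 FPKM across libraries. The cardiomyocyte markers summed to between 30.1 and 54.0 FPKM in WT medium and between 102.3 and 127.8 FPKM in Alox5KO medium, with 4 called higher. The 8 mast cell markers summed to 43.4 to 61.4 FPKM in WT medium and 22.3 to 32.2 FPKM in Alox5KO medium, and Mcpt4, Tpsb2, Fcer1a and Ms4a2 were at 0. Their median was 0 to 0.0912 FPKM across libraries, so few genes make up the sum, and 1 was called lower. The 5 endothelium markers found summed to 4.365 to 6.477 FPKM in WT medium and 2.726 to 3.613 FPKM in Alox5KO medium, with 1 called lower. Their median was 0 to 0.0328 FPKM across libraries. The summed levels of the smooth muscle, cardiomyocyte, mast cell and endothelium markers differed between the media. Those of the fibroblast, leukocyte, Schwann cell and red cell markers overlapped. The part of these levels in the lincRNA results was not tested. In such bulk samples, fewer cells of a type and less RNA per cell cannot be told apart.

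Most annotated lincRNA genes gave no reads. Of the 3090 rows, 2362 were at 0 in all 6 libraries, 630 had a mean above 0 and below 1 FPKM, and the 98 members were 3.17% of the class. Among protein-coding rows, 50.1% reached the same mean. A mean of at least 5 FPKM was reached by 23 lincRNA rows and a mean of at least 10 FPKM by 12. The members' median level was 2.26 FPKM, against 11.8 FPKM for tested protein-coding genes, and their median length was 874 bases against 2331. Low level and short length together left few reads: the median member had 211 reads summed over the 6 libraries, with a range of 24 to 5686, whereas the median tested coding gene had 2644. Together the members took 0.0552%, 0.0594% and 0.064% of reads with WT medium and 0.0736%, 0.0709% and 0.0613% with Alox5KO medium. The groups overlap in this share. All but 6 members were above 0 in every library.

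The threshold cut through a continuum of levels. Just inside it were AABR07024856.1 with a mean of 1.01 FPKM and AABR07066820.1 with 1.03 FPKM. Just outside were AABR07041096.1 with 0.986 FPKM and AABR07014855.1 with 0.940 FPKM. The last of these read 3.30, 1.53 and 0 FPKM in WT medium and 0.204, 0.0955 and 0.511 FPKM in Alox5KO medium, so a row of this level can differ several-fold between replicates.

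Only 4 members carry a gene symbol in the table, namely Tug1, Rfwd3, Ly6l and Kantr. The other 94 have clone-derived names or LOC numbers, and these names are used here as the table gives them. The members lie on 21 chromosomes, with 13 on chromosome 1 and 8 each on chromosomes 3 and X. No source used here names the genome build, and positions are those of the deposited table.

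The most abundant member was LOC102549726 (chromosome 20, 4871264 to 4873982, minus strand). It lies within the annotated span of the histocompatibility gene RT1-CE7 on the same strand. It read 38.6, 39.1 and 41.2 FPKM in WT medium and 44.0, 44.5 and 45.9 FPKM in Alox5KO medium. The groups do not overlap, yet the difference was small and did not pass the test (log2 fold change 0.17, limma adjusted p = 0.200). Here and below, fold changes are on the log2(FPKM + 1) scale, and p-values are from limma with Benjamini-Hochberg adjustment over all 12341 genes tested, at a threshold of 0.05. AABR07070131.1, described below, was the next. AABR07019209.1 overlaps the annotated span of Mycbp2, a ubiquitin ligase gene, on the opposite strand. That span runs from 87506959 to 93868301 for 15048 bases of exon, and the overlap rests on it. AABR07019209.1 had 27.2 ± 3.68 FPKM (SD, n = 3) in WT medium and 22.5 ± 3.69 FPKM in Alox5KO medium. AABR07053749.2 had 26.1 ± 1.54 and 20.1 ± 0.607 FPKM, and AABR07002969.1 had 20.1 ± 1.84 and 23.4 ± 1.93 FPKM.

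AC134224.1, AC134224.2 and AC134224.3 are neighbours on the minus strand of chromosome 1, between 221151827 and 221158792, a span of 6966 bases. AC134224.3 read 28.2, 34.3 and 29.5 FPKM in WT medium and 37.2, 31.1 and 15.4 FPKM in Alox5KO medium. AC134224.1 read 10.8, 11.5 and 14.6 FPKM and then 19.4, 16.3 and 7.67 FPKM. In both rows, and in AC134224.2 (named after its values were seen) with 4.31, 3.65, 4.10 and then 5.11, 4.18 and 1.96 FPKM, replicate 1 of Alox5KO medium was the highest of all 6 samples and replicate 3 the lowest. None passed the test (limma adjusted p = 0.702, 0.822 and 0.748 for AC134224.3, AC134224.1 and AC134224.2). The log2 fold change of AC134224.3 was -0.22 with all samples and 0.15 without Alox5KO replicate 3 (limma adjusted p = 0.499), so its sign rests on that library. AABR07039356.2 on chromosome X was also lowest in that replicate, with 8.27, 11.9 and 14.4 FPKM in WT medium and 15.9, 22.5 and 7.49 FPKM in Alox5KO medium.

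Tug1 (chromosome 14, 83878295 to 83887584, minus strand), a widely expressed lincRNA known to associate with chromatin-modifying complexes, read 10.3, 10.7 and 11.3 FPKM in WT medium and 14.1, 12.5 and 11.9 FPKM in Alox5KO medium. Every Alox5KO-medium sample was above every WT-medium sample, but the difference did not pass the test (log2 fold change 0.23 ± 0.10 SE, limma adjusted p = 0.161). Its divergent neighbour Morc2, a chromatin-silencing ATPase gene 1504 bases away, gave a log2 fold change of 0.21 (limma adjusted p = 0.209). Rfwd3, a row named for a ubiquitin ligase of DNA repair but typed as lincRNA, had 5.95 ± 0.0224 FPKM (SD, n = 3) and 4.92 ± 0.295 FPKM (limma adjusted p = 0.183). Ly6l had a log2 fold change of 0.58, did not pass and lay 19.7 kb from Ly6i, which was not tested. The mean of Ly6l was at least 1 FPKM in Alox5KO medium only (0.739 FPKM in WT medium), so its p-value is not given. Kantr, downstream of Tspyl2, reached 1 FPKM in WT medium only (0.912 FPKM in Alox5KO medium) and is given without a p-value. It did not pass (log2 fold change -0.20), and Tspyl2 had -0.25.

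A further pair of members lies near coding genes that have a named noncoding gene beside or across them in the mouse annotation. AABR07058158.1 lies 57.6 kb downstream of the transcription factor gene Myc on its strand, where the mouse annotation has Pvt1. LOC108349594 lies 2232 bases upstream of the chromatin remodeller gene Chd2 on its strand. In the mouse, 1810026B05Rik is on the strand of Chd2 but overlaps it. Both members were named after their values were seen, and neither was matched by sequence. AABR07058158.1 had 9.34 ± 1.10 FPKM (SD, n = 3) in WT medium and 10.0 ± 0.672 FPKM in Alox5KO medium, a log2 fold change of 0.09 (limma adjusted p = 0.629). LOC108349594 had 4.63 ± 0.511 and 6.06 ± 0.262 FPKM, with groups that do not overlap (log2 fold change 0.33, limma adjusted p = 0.0899).

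**Figure D1:**
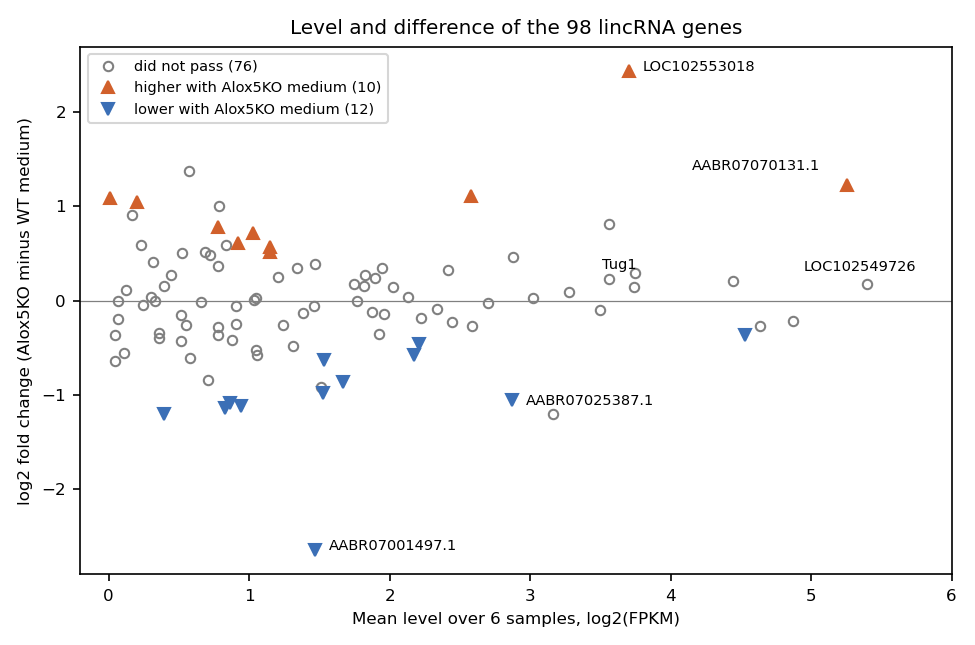
The x axis gives the mean level of each of the 98 lincRNA genes over 6 samples as log2(FPKM), and the y axis its log2 fold change on the log2(FPKM + 1) scale, Alox5KO medium minus WT medium, with triangles for the 22 genes that passed the test. Most points lie near 0 at every level, LOC102553018 (2.43) and AABR07001497.1 (-2.65) stand farthest out, and the most abundant gene, LOC102549726, is close to 0.

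Between the media, 10 members were higher and 12 lower in Alox5KO medium at a Benjamini-Hochberg adjusted p under 0.05 in limma, and 76 did not pass. The 22 calls are 22.4% of the members, where 20.7% of all 12341 tested genes were called. By direction, 10.2% of members were called higher, against 10.0% of all tested genes, and 12.2% lower, against 10.6%. The members were thus called about as often as any expressed gene. Of the 78 members with a mean of at least 1 FPKM in both groups, 7 were higher and 7 lower. The 12 members past 1 FPKM in WT medium only gave 5 of the lower calls, and the 8 past it in Alox5KO medium only gave 3 of the higher calls.

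The groups did not overlap for 43 members, 43.9%, against 37.6% of all tested genes. These 43 include all 22 called members. The median log2 fold change was -0.00803 over the members and -0.000816 over all tested genes, while the median size of the change was 0.36 against 0.204. The members also varied more between replicates: the median SD within groups on the log2 scale was 0.245, against 0.151 for tested coding genes. Within the range of 1 to 10 FPKM the SD was 0.246 for 86 members and 0.174 for 5029 coding genes.

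LOC102553018 (chromosome 2, 251534907 to 251607676, plus strand, 1439 bases of exon) had the largest rise. It read 3.11, 2.54 and 4.62 FPKM in WT medium and 25.2, 18.6 and 24.1 FPKM in Alox5KO medium. The lowest Alox5KO-medium sample was far above the highest WT-medium sample, a ratio of means of 6.61 and a log2 fold change of 2.43 ± 0.19 SE (limma adjusted p = 3.82e-05). The value rests on 207 reads in WT medium and 1508 in Alox5KO medium.

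Its nearest coding row, AABR07013701.1, lies 162 bases away on the same strand and did not pass (log2 fold change 0.61, limma adjusted p = 0.25, and 0.0351 with the replicate number as a block). On the opposite strand 2594 bases away is Ccn1, which encodes a matricellular protein secreted by fibroblasts, and 26.8 kb away on the same strand is Ddah1, an enzyme gene of nitric oxide metabolism. Both were named after their values were seen. Ccn1 read 81.3, 88.5 and 79.2 FPKM in WT medium and 237.4, 250.5 and 297.6 FPKM in Alox5KO medium, a log2 fold change of 1.64 ± 0.11 SE (limma adjusted p = 1.71e-05). Ddah1 rose by 0.94 on the log2 scale (limma adjusted p = 0.00178). The mouse annotation has a lincRNA gene, Gm17501, 330 bases from Ccn1, also on the strand opposite to Ccn1 and on the side of Ddah1, and the rat row was not matched to it by sequence.

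AABR07070131.1 (chromosome 8, 53831526 to 53838620, plus strand, 649 bases) read 18.5, 26.4 and 22.8 FPKM in WT medium and 53.8, 56.3 and 51.1 FPKM in Alox5KO medium. All 3 Alox5KO-medium samples were above all 3 WT-medium samples, a ratio of 2.38 and a log2 fold change of 1.23 ± 0.13 SE (limma adjusted p = 0.000209). It ends 477 bases from the end of Ncam1, the neural cell adhesion molecule gene, which is read toward it from the other strand. Ncam1 read 19.2, 19.3 and 24.4 FPKM in WT medium and 46.2, 61.2 and 50.7 FPKM in Alox5KO medium (log2 fold change 1.29 ± 0.13 SE, limma adjusted p = 0.00021). The lincRNA and the coding gene thus had similar levels and similar differences. No source used here says whether reads were counted by strand, and reads past the end of one gene cannot be told apart from reads of the other.

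AABR07025387.1 (chromosome 16, 36374593 to 36388331, plus strand, 447 bases) read 11.0, 9.86 and 9.60 FPKM in WT medium and 6.05, 4.28 and 3.10 FPKM in Alox5KO medium. The groups do not overlap, and the mean fell by 1.06 on the log2 scale (0.19 SE, limma adjusted p = 0.00364). It starts 1046 bases from Hand2 and is read away from it. Hand2 encodes a transcription factor needed for heart and limb development. It read 14.4, 12.8 and 12.6 FPKM in WT medium and 5.31, 5.74 and 6.96 FPKM in Alox5KO medium and fell by 1.03 on the log2 scale (0.12 SE, limma adjusted p = 0.000445). The mouse annotation has the noncoding gene Hand2os1 on the strand opposite to Hand2, but there it overlaps Hand2. The rat row was not matched to it by sequence. A further member, AABR07025386.1, named after its values were seen, lies 74.1 kb downstream of Hand2 on its strand and did not pass, with 1.97, 1.84 and 2.16 FPKM in WT medium and 3.54, 2.41 and 1.89 FPKM in Alox5KO medium (log2 fold change 0.25, limma adjusted p = 0.403).

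AABR07001497.1 (chromosome 1, 47704677 to 47725747, plus strand) had the largest fall. It read 6.31, 3.06 and 7.25 FPKM in WT medium and 0 in all 3 Alox5KO-medium samples. With an exon length of only 124 bases, these values are 29 reads against 0. Set against a floor of 3 reads over the Alox5KO-medium group, 0.52 FPKM, its level was at least 10.7-fold lower there. It was among the 12 members with a mean of at least 1 FPKM in WT medium only, so that its selection favoured a fall, and its p-value is not given. Its nearest coding gene, Fndc1, 17172 bases away, read 2.20, 2.10 and 6.996 FPKM in WT medium and 6.18, 2.69 and 6.46 FPKM in Alox5KO medium and did not pass (limma adjusted p = 0.586). Sod2, the mitochondrial superoxide dismutase gene 189 kb away, named after its values were seen, fell by 1.70 on the log2 scale (limma adjusted p = 9.96e-05).

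**Figure D2:**
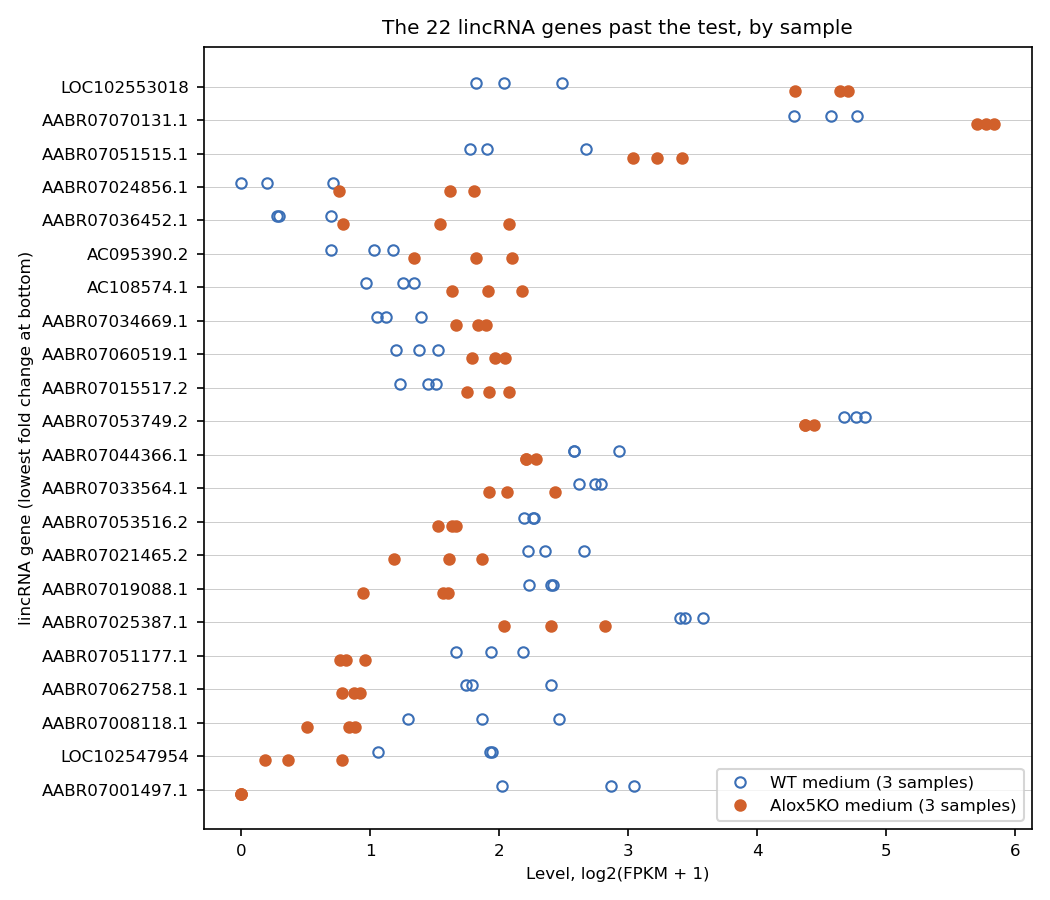
Each line is 1 of the 22 lincRNA genes that passed the test, ordered by fold change, and the x axis is the level as log2(FPKM + 1), with open circles for the 3 WT-medium samples and filled circles for the 3 Alox5KO-medium samples. The groups are apart on every line, by a wide margin for LOC102553018 and AABR07070131.1 and by a narrow one for AABR07024856.1 and AABR07036452.1.

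Among the other higher calls, AABR07051515.1 (chromosome 3) read 5.37, 2.42 and 2.75 FPKM in WT medium and 9.70, 8.34 and 7.22 FPKM in Alox5KO medium (log2 fold change 1.11 ± 0.24 SE, limma adjusted p = 0.0121). It lies 14.8 kb upstream of Ggta1, the gene of the enzyme that makes the alpha-gal sugar epitope, on the same strand, and Ggta1 rose from 9.83 ± 0.876 to 18.3 ± 2.07 FPKM (SD, n = 3; limma adjusted p = 0.00115). AABR07024856.1 and AABR07036452.1 reached a mean of 1 FPKM in Alox5KO medium only, so that selection favoured a rise, and their p-values are not given. AABR07024856.1 read 0, 0.637 and 0.145 FPKM in WT medium and 0.691, 2.07 and 2.49 FPKM in Alox5KO medium, on 5 and 39 reads (log2 fold change 1.09). It lies 128 bases upstream of the tropomyosin gene Tpm4, which rose from 977 ± 59.4 to 1487 ± 54.8 FPKM (log2 fold change 0.61, limma adjusted p = 0.00334). At so few reads beside a gene of that level, reads from an extended Tpm4 transcript cannot be told apart from reads of the lincRNA. AABR07036452.1 read 0.213, 0.228 and 0.622 FPKM and then 1.91, 3.21 and 0.726 FPKM (log2 fold change 1.04), so its lowest Alox5KO-medium sample was barely above its highest WT-medium sample.

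The remaining 5 higher calls were smaller. AC095390.2, also at 1 FPKM or more in Alox5KO medium only (0.975 FPKM in WT medium), had a log2 fold change of 0.78 and is given without a p-value. AC108574.1 rose by 0.72 on the log2 scale (limma adjusted p = 0.0251), AABR07034669.1 by 0.61 (0.0263), AABR07060519.1 by 0.56 (0.0307) and AABR07015517.2 by 0.52 (0.0455). For both AC095390.2 and AABR07060519.1 the nearest coding gene went the other way. Chek2, a DNA damage checkpoint kinase gene 5588 bases from AC095390.2, read 8.36, 9.34 and 9.48 FPKM in WT medium and 4.95, 6.11 and 4.90 FPKM in Alox5KO medium (log2 fold change -0.67, limma adjusted p = 0.00429). Pdia4, a protein-folding enzyme gene of the endoplasmic reticulum 24.0 kb from AABR07060519.1, fell from 298.9 ± 25.2 to 148.5 ± 9.41 FPKM (SD, n = 3; log2 fold change -1.002, limma adjusted p = 0.000212). Of the other neighbours, Dhx15 (-0.13, beside AABR07015517.2) and Med13l (0.25, beside AABR07036452.1) did not pass, and those of AC108574.1 and AABR07034669.1 were below the level tested. The neighbour of AC108574.1, Abhd10, 2682 bases away on the same strand, was lower in Alox5KO medium, opposite to AC108574.1. It read 0.993, 1.91 and 1.64 FPKM in WT medium and 0.230, 0 and 0.969 FPKM in Alox5KO medium.

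The lower calls include 4 more with a fold change of -1 or below. All 4 had a mean under 1 FPKM in Alox5KO medium and entered through WT medium only, so that selection favoured a fall, and their values are given without p-values. AABR07062758.1 read 2.45, 2.35 and 4.27 FPKM in WT medium and 0.837, 0.896 and 0.719 FPKM in Alox5KO medium (log2 fold change -1.12 ± 0.20 SE). AABR07051177.1 read 2.83, 2.17 and 3.55 FPKM and then 0.751, 0.703 and 0.941 FPKM (log2 fold change -1.08 ± 0.18 SE). In both genes the Alox5KO-medium samples lie close together and well below the WT-medium samples. LOC102547954 read 1.08, 2.81 and 2.86 FPKM and then 0.716, 0.134 and 0.287 FPKM (log2 fold change -1.20). AABR07008118.1 read 4.53, 1.45 and 2.64 FPKM and then 0.840, 0.786 and 0.421 FPKM, on 19 and 5 reads (log2 fold change -1.13). The neighbour of AABR07051177.1 was below the level tested, and those of AABR07062758.1 and LOC102547954 did not pass: Pkdcc, 61.4 kb from AABR07062758.1, had a log2 fold change of 0.26 (limma adjusted p = 0.141), and the DNA ligase gene Lig3, read away from LOC102547954 at 163 bases, had -0.02 (limma adjusted p = 0.942). Il6st, the gene of the signalling receptor shared by the interleukin 6 family, lies 17.2 kb from AABR07008118.1 and fell from 184.0 ± 19.3 to 115.3 ± 18.6 FPKM (SD, n = 3; limma adjusted p = 0.00757).

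The other 6 lower calls had fold changes between -0.36 and -0.98. AABR07019088.1 overlaps the long annotated span of Mycbp2 on the opposite strand. It read 3.71, 4.29 and 4.34 FPKM in WT medium and 1.96, 0.919 and 2.04 FPKM in Alox5KO medium (log2 fold change -0.98, limma adjusted p = 0.00686). Mycbp2 itself fell by 0.69 on the log2 scale (limma adjusted p = 0.0192, and 0.072 without Alox5KO replicate 3). AABR07021465.2 fell by 0.86 (limma adjusted p = 0.0146), AABR07053516.2 by 0.63 (0.00723) and AABR07044366.1 by 0.46 (0.0415). Near these, Tdrd5 was below the level tested, and Zfp106 (-0.19) and Mdc1 (-0.38) did not pass, although Mdc1 was called without Alox5KO replicate 2 (-0.55, limma adjusted p = 0.0265). AABR07033564.1, with the longest exons of any member (5459 bases), had 5.57 ± 0.398 and 3.45 ± 0.850 FPKM (SD, n = 3; log2 fold change -0.58, limma adjusted p = 0.0287). It lies 199.9 kb downstream of Bach1, a transcriptional repressor gene of the heme oxygenase pathway, on the same strand. Bach1 had 13.5 ± 1.04 and 8.96 ± 1.98 FPKM (log2 fold change -0.56, limma adjusted p = 0.0263). The smallest change called was that of AABR07053749.2, which read 24.5, 27.6 and 26.2 FPKM and then 19.7, 20.8 and 19.7 FPKM (log2 fold change -0.36, limma adjusted p = 0.0226).

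When each library was left out in turn, 8 of the 22 calls held every time, namely LOC102553018, AABR07070131.1, AABR07025387.1, AABR07001497.1, AABR07062758.1, AABR07051177.1, AABR07019088.1 and AABR07053516.2. Among these, AABR07001497.1, AABR07062758.1 and AABR07051177.1 reached the level tested through WT medium only. AABR07051515.1 lost its call without Alox5KO replicate 1 (limma adjusted p = 0.0511), AABR07021465.2 without WT replicate 1 (0.0633) and LOC102547954 without WT replicate 2 or Alox5KO replicate 3. The other 11 lost theirs in 4 to 6 of the 6 fits. For those with a mean of at least 1 FPKM in both groups, the highest limma adjusted p lay between 0.0947 and 0.168. The fold changes of all 11 kept their direction. AABR07015517.2 lost its call in all 6 fits, with log2 fold changes of 0.44 to 0.60 against 0.52 with all samples, and AABR07060519.1 in 4, with 0.48 to 0.64 over the 6 fits against 0.56. AABR07036452.1 ran from 0.74 to 1.38, against 1.04. Of the 22 called members, 10, 12 and 16 stayed called without WT replicates 1, 2 and 3, and 12, 16 and 11 without Alox5KO replicates 1, 2 and 3. Bach1 was not called without WT replicate 1 or 3 or Alox5KO replicate 1 or 3 (limma adjusted p up to 0.0904), where its log2 fold change ran from -0.45 to -0.54, nor with all 6 libraries as TPM (0.0731) or with no filter on low values (0.0632).

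A few members had most of their reads in 1 library or differed several-fold between replicates, and these were named after their values were seen. AC127076.2 read 0.159, 0.170 and 0.258 FPKM in WT medium and 9.43, 0.322 and 0 FPKM in Alox5KO medium, so 192 of its 210 reads came from Alox5KO replicate 1. AABR07000382.1 had 110 of its 118 reads in Alox5KO replicate 3, at 6.27 FPKM against 0.307 FPKM in the next sample. AC141521.1 read 0.0866, 0.216 and 0.337 FPKM in WT medium and 3.59, 0.226 and 4.48 FPKM in Alox5KO medium. LOC100912578 read 5.90, 16.0 and 12.9 FPKM and then 3.92, 14.3 and 0.792 FPKM. None of the 4 passed the test. AC127076.2, AABR07000382.1 and AC141521.1 reached a mean of 1 FPKM in Alox5KO medium only, so their p-values are not given. For LOC100912578 the limma adjusted p was 0.448. AC127076.2 and AABR07000382.1 would not be members without their single high library.

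The nearest protein-coding gene was taken as the one with the smallest gap between gene bodies, whatever its level. The 98 members have 92 such neighbours, at a median gap of 8.48 kb and at most 302.6 kb. Gene bodies overlapped for 6 members, the gap was at most 5 kb for 39, overlaps included, and at most 100 kb for 91. Overlaps follow the annotated spans, which are long for Mycbp2 (87506959 to 93868301), Gramd1c (61605937 to 62634803) and RT1-CE7 (4694472 to 4896970). Whether these spans are right was not tested. The neighbour was on the same strand for 55 members and on the opposite strand for 43. Of the 92 neighbours, 64 were tested, 69.6%, whereas 50.1% of all protein-coding rows were, and 13 were at 0.

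Among the 64 tested neighbours, 8 were higher and 11 lower in Alox5KO medium. These 19 are 29.7% of those tested, where 21.2% of tested protein-coding genes were called, and the difference between these shares was not tested. They include Hand2, Ncam1, Ggta1, Tpm4, Il6st, Bach1, Mycbp2, Chek2 and Pdia4, given above. The others lay near members that did not pass, and those given here were named after their values were seen, except Vegfa. Among them Ctif (log2 fold change 1.165), Gramd1c (0.60) and Ccnyl1 (0.53) were higher, and Sema4c (-0.69), Meis1 (-0.47) and Bdkrb1 (-0.44) were lower. The members beside these genes, in the same order, had log2 fold changes of 0.11, 0.59, -0.34, -0.00057, -0.52 and -0.36. The member beside Ccnyl1 thus went the other way, and the one beside Sema4c was flat. Those beside Meis1 (AABR07016545.1) and Bdkrb1 (AC125847.1), also named after their values were seen, had SEs of 0.82 and 0.38. AABR07016545.1 read 1.10, 0.294 and 7.48 FPKM in WT medium and 2.545, 0.238 and 0.765 FPKM in Alox5KO medium. Its fall thus rests on WT replicate 3. Lrrc32, a gene for a surface anchor of latent TGF-beta, lies 1649 bases from AABR07004868.2. It rose by 0.70 on the log2 scale (limma adjusted p = 0.0158), and AABR07004868.2 read 7.22, 6.62 and 10.8 FPKM and then 20.5, 11.0 and 14.5 FPKM, just outside the threshold (limma adjusted p = 0.0585). Pim3, a survival kinase gene 3531 bases from AABR07058656.1, fell by 0.98 (limma adjusted p = 0.000456), and AABR07058656.1 had -0.56. Vegfa, the angiogenic growth factor gene 144.9 kb from AABR07066820.1, fell by 0.51 (limma adjusted p = 0.0146, and up to 0.0728 without WT replicate 1, Alox5KO replicate 1 or Alox5KO replicate 3), and AABR07066820.1 had -0.64. AABR07058656.1 and AABR07066820.1 reached a mean of 1 FPKM in WT medium only. Selection thus favoured a fall, and their p-values are not given.

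**Figure D3:**
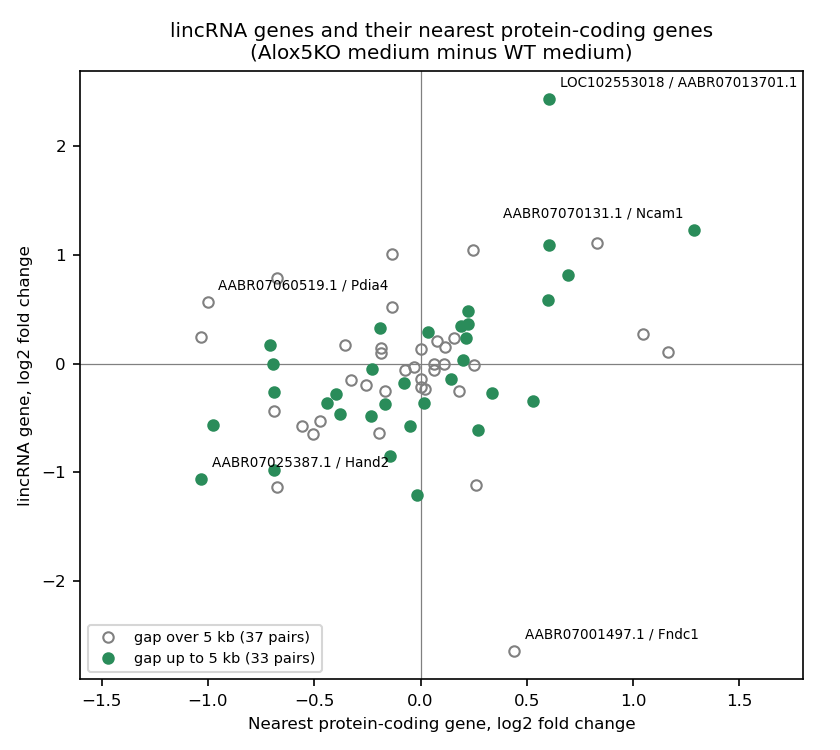
Each point is a lincRNA gene and its nearest protein-coding gene, for the 70 pairs in which the neighbour was tested, with the log2 fold change of the coding gene on the x axis and that of the lincRNA gene on the y axis (Alox5KO medium minus WT medium), filled for gaps up to 5 kb. Of the filled points, 26 of 33 lie in the quadrants of equal sign, and AABR07001497.1 with Fndc1 is the point farthest from the rest.

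In 45 of the 70 pairs with a tested neighbour, 64.3%, the lincRNA gene and the coding gene had fold changes of the same sign. For tested coding genes and their own nearest coding gene, the share was 54.4% of 7450 pairs. With the gap limited to 5 kb, a limit chosen after the data were seen for this count, 26 of 33 lincRNA pairs had the same sign, 78.8%, against 53.9% of 4233 coding pairs. Signs were counted whatever their size, in lincRNA and coding pairs alike. The 26 include AABR07067401.1 with Sema4c, where the lincRNA had -0.00057. They also include pairs counted as overlapping by the long annotated spans of Mycbp2 and Gramd1c. Pearson's r of the fold changes was 0.632 over these 33 pairs and Spearman's rho 0.587, and without LOC102553018 they were 0.644 and 0.549. No other pair was left out. The pairs with Ncam1 and Hand2, at the ends of the range of the coding genes, were kept, and how far r rests on them was not tested. Over all 70 pairs r was 0.347. For coding pairs r was 0.165 up to 5 kb and 0.194 over all. These are descriptions across genes: the points share the same 6 libraries, some share a neighbour, and the genes are not replicates. Both genes were called in 9 lincRNA pairs, 7 in the same direction, and in 391 coding pairs, 292 in the same direction (74.7%).

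Orientation was tabulated for the 39 members within 5 kb. The 14 divergent members, which start beside a coding gene and are read away from it, had 13 tested neighbours, 10 with the same sign. They gave 2 calls, AABR07025387.1 beside Hand2 and LOC102547954 beside Lig3, and the neighbour was called too in the first. Of all tested genes 20.7% were called, and each class of members holds few genes. A divergent member could be low beside an abundant gene. AABR07030366.1, 2496 bases from the collagen gene Col1a1 and picked out with its values in view, had 3.27 ± 0.260 and 4.43 ± 0.158 FPKM (SD, n = 3; limma adjusted p = 0.0754) beside a mean of 3516 FPKM for Col1a1. The 7 members downstream of a coding gene on its strand had 6 tested neighbours, all 6 with the same sign, and 3 calls. The 9 upstream on the same strand had 8 tested neighbours, 5 with the same sign, and 2 calls. The 3 convergent members had 1 tested neighbour, with the same sign, and 1 call. Of the 6 overlapping members, 5 had a tested neighbour, 4 with the same sign. Of the 59 members farther than 5 kb from any coding gene, 37 had a tested neighbour, and 19 of those pairs had the same sign. The difference between these classes was not tested.

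**Figure D4:**
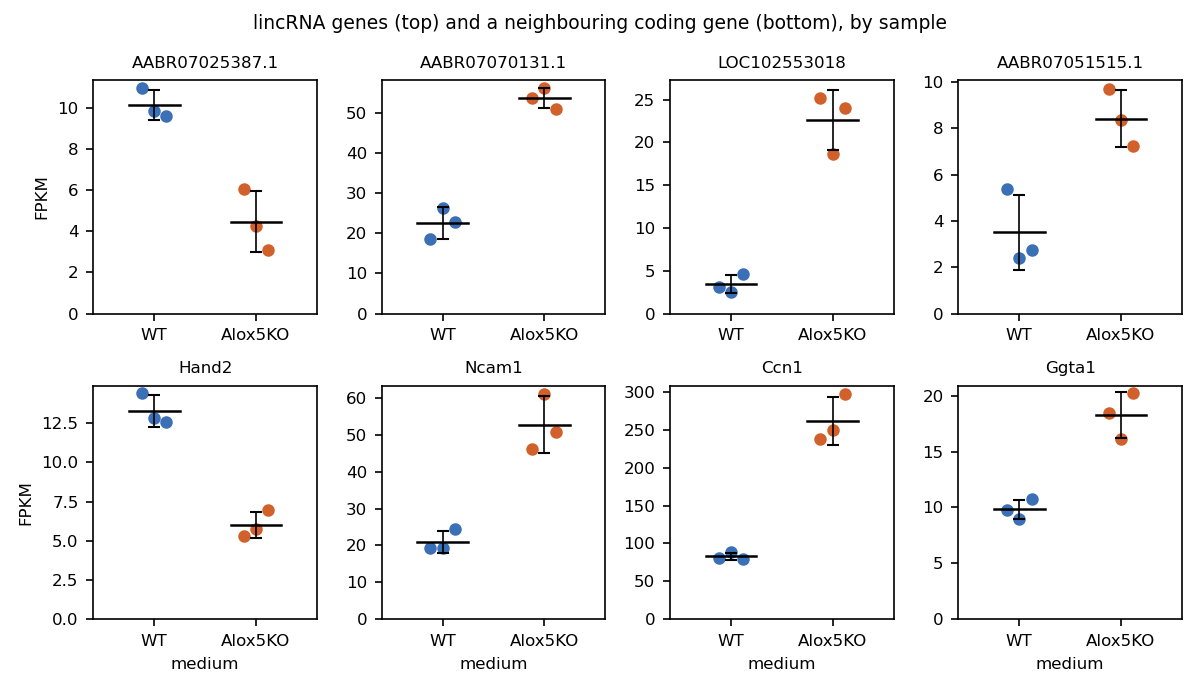
FPKM in each sample is plotted for 4 lincRNA genes (top row) and a neighbouring coding gene (bottom row), with bars for the mean and SD of the 3 samples of each medium and axes starting at 0. The loci shown are ones in which both genes were called in the same direction: lower in Alox5KO medium at AABR07025387.1 and Hand2, and higher at AABR07070131.1 and Ncam1, LOC102553018 and Ccn1, and AABR07051515.1 and Ggta1. Ccn1 was named after its values were seen, and the coding row nearest to LOC102553018, AABR07013701.1, did not pass. Called pairs of opposite direction, AABR07060519.1 with Pdia4 and AC095390.2 with Chek2, are not shown.

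The annotation of some members refers to a protein. In the table's descriptions, 27 of the 98 members are tied to a protein name, and 4 of these 27 were called, where 20.7% of all tested genes were. For 9 of the 27 the table has a coding row of that name within 500 kb, and all 9 are on the strand of the lincRNA. AABR07033564.1 with Bach1 is one of these, and AC095390.2 with Ttc28 another: Ttc28, 57.4 kb from it and named after its values were seen, rose by 0.72 on the log2 scale (limma adjusted p = 0.0083), as AC095390.2 did and Chek2 did not. Of the 8 tested coding genes in these pairs, 7 had the sign of the lincRNA. Such rows may share sequence with, or be parts of, the coding gene they are named for, and this was not tested.

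Other noncoding classes of the table were called at varied rates in the same fit. Rows typed as processed_transcript had 7 calls among 25 tested (28.0%), antisense rows 1 among 6, processed pseudogenes 22 among 107 (20.6%) and snoRNA rows 5 among 159 (3.14%). The 481 tested rows with no biotype had 90 calls (18.7%). The lincRNA share of 22.4% lies within this range.

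Of 87 symbols of well-known long noncoding RNAs, 3 were found in the table, since it names few. They are Tug1, given above, and Terc, the telomerase RNA, and Snhg11, both at 0 in all libraries. The genes of 22 proteins that build paraspeckles and nuclear speckles or belong to the Polycomb complex, which many lincRNAs bind, were all expressed, and limma called 0 of 22, with 1 at an unadjusted p under 0.05, where 20.7% of all tested genes were called. Their log2 fold changes ran from -0.40 to 0.16 with a median of 0.022. The lowest adjusted p was that of Ezh2, the Polycomb methyltransferase (log2 fold change -0.30, limma adjusted p = 0.0883), followed by Nudt21 (-0.16, 0.252), Hnrnpk (0.15, 0.313, and called at 0.26 with adjusted p = 0.0386 under quantile normalization) and Hnrnph3 (-0.40, 0.319).

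Below 1 FPKM, lincRNA rows could be tested only with the filter on low values removed. Of the 728 rows above 0 in at least 1 library, 12 were then higher and 19 lower, where 12.1% of all 19519 rows above 0 were called. Of these calls, 7 higher and 10 lower were among the 630 rows under 1 FPKM, named here after their values were seen. AABR07005779.7 read 1.35, 1.14 and 1.04 FPKM in WT medium and 0.0783, 0.0733 and 0.105 FPKM in Alox5KO medium, on 124 and 10 reads. AABR07035782.1 went the other way, with 0.0410, 0.131 and 0.0798 FPKM and then 0.684, 0.498 and 0.723 FPKM, on 6 and 51 reads. AA926063 read 1.17, 0.815 and 1.78 FPKM and then 0.424, 0.397 and 0.236 FPKM, on 74 and 23 reads. The groups do not overlap in these 3 rows, which were picked from the called rows, so this is no further support for them. Some of the other calls rest on fewer than 10 reads in all, such as AABR07030351.1 with 0 reads against 3.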

How the data were processed

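The authors deposited FPKM values per gene, with gene length, biotype, description and position, per the file headers. Per the submitters' processing notes, the tools were HISAT2 2.0.5, featureCounts 1.5.0-p3, CASAVA 1.8, fastp and DESeq2 1.20.0, with the build mm10, and no roles are stated. The labels give mouse as the organism, but 32883 of 33682 rows carry rat Ensembl identifiers and 799 carry none. Libraries were made from total RNA with a NEBNext Ultra kit, per the labels' protocols. No source used here says how strand was treated in counting.

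FPKM times gene length came out as whole multiples of 1 step per library for 100% of values within 0.05 reads, which gave the reads. The authors' divisor was 0.990 to 1.03 times their sum. The 12341 rows with a mean of at least 1 FPKM were fitted as log2(FPKM + 1) in R 4.3.3 by limma 3.58.1, using a trend and robust prior, two-sided, without a block, and adjusted by Benjamini-Hochberg over all rows at 0.05. Fold changes are Alox5KO medium minus WT medium on the log2(FPKM + 1) scale, which understates changes of low genes. The script was tested on simulated data. The members and lists were chosen with earlier results of these data known. Named by rule were called members whose groups do not overlap (up to 12 each way), the 8 most abundant members, members with a gene symbol, the nearest coding gene of each, the 2 rows on each side of the threshold and the 4 smallest p of each list. Any other gene is said to be named after its values were seen. Some neighbouring genes are not reported here. Rat sequences were not used here. The alternatives were pseudocounts, filters, scalings, voom on the reads, a replicate block, left-out libraries and other definitions of the neighbour.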

Additional observations from a re-analysis of the deposited data

How the results depend on the processing

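No called member reversed its direction under any alternative, and 7 of the 22 calls held in every alternative in which they were tested. They are those listed as holding without each library except AABR07053516.2 (limma with voom on the reads, adjusted p = 0.0694). AABR07019088.1, AABR07001497.1, AABR07062758.1 and AABR07051177.1 were too low to be tested in the fit with a mean of at least 5 FPKM. Among the 7, AABR07001497.1, AABR07062758.1 and AABR07051177.1 reached the level tested through WT medium only, so selection favoured their fall. The number of members called higher was 5 with no filter on low values, and 5 of the 23 members with a mean of at least 5 FPKM were higher and 2 lower, since fewer were tested. In that stricter set 9 of 14 pairs had the same sign. With the neighbour taken among tested genes, 13 neighbours were higher. A mean of at least 0.5 FPKM would give 153 members and one of at least 2 FPKM 56. Leaving out each library in turn gave 3 to 9 members higher and 7 to 12 lower, 791 to 1226 of all genes higher and 862 to 1325 lower, 5 to 8 neighbours higher and 8 to 12 lower, and 43 to 46 pairs of the same sign, the fewest higher members without WT replicate 1. Higher members were 4 at most without WT replicate 1 or 2 or Alox5KO replicate 1 or 3.

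With the replicate block, 9 members were higher and 12 lower, and 1277 of all genes were higher and 1375 lower. Of the 22 calls 18 held and 3 other members were called. Deviations of samples with the same number correlated at -0.0963, 0.105 and 0.167 for replicates 1, 2 and 3. Samples of replicates 2 and 3 correlated best with their own number, and those of replicate 1 did not. With 3 samples in each group, these values cannot decide whether the numbers pair the samples. With voom 15 of the 22 calls held, with TPM 19 and with no filter 14. Few reads limit the members: AABR07008118.1 rests on 24 reads in all and AABR07001497.1 on 29.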
